A study of Mus musculus with 10 samples.

Results

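Genes for the developmental transcription factors of the HOX, PAX, SOX, GATA, T-box (TBX), LIM-homeobox (LHX) and SIX-homeobox families were followed in cultured mouse microglia, the resident macrophages of the brain, that had all received an inhibitor of the histone methyltransferase EZH2. Genes were taken by symbol, as every numbered Hox cluster gene, Pax1 to Pax9, and every numbered Sox, Gata, Tbx, Lhx and Six-family gene listed, whether or not it had a read. This gave 100 of the 24411 genes listed: 39 Hox, 19 Sox, 13 Tbx, 9 Pax, 8 Lhx, 6 Gata and 6 Six-family genes. The rule uses symbols alone and no measured value, although the families were proposed with earlier results of these data known.

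The 10 RNA-seq libraries fall into 4 groups, and EPZ-6438 at 10 uM for 4 h was common to them all. Primary microglia with EPZ-6438 and lipopolysaccharide (LPS), the outer membrane glycolipid of Gram-negative bacteria that is sensed through Toll-like receptor 4, at 10 ng/ml (n = 3) were set against primary microglia with EPZ-6438 alone (n = 3). BV2 cells, an immortalised mouse microglial line, with EPZ-6438 and LPS at the same dose (n = 2) were set against BV2 cells with EPZ-6438 alone (n = 2). Primary cells came from brains of 3-day-old ICR mice, 12 animals pooled, were shaken off mixed glial cultures and were over 92% positive for CD11b by flow cytometry, per the labels' protocols. No sample here lacked EPZ-6438 (cells without it were not analysed here), and its own effect is therefore not measured in any comparison. The labels do not say that replicates were separate cultures, so p-values reflect only how far these samples scattered, which may be technical.

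Polycomb repressive complex 2 (PRC2), with EZH2 or EZH1 as its catalytic subunit, methylates lysine 27 of histone H3, and Polycomb repressive complex 1 (PRC1) binds the mark and compacts chromatin. Genes for developmental transcription factors, with start sites in CpG-rich DNA, are the classical targets of this system and are mostly silent in differentiated cells outside their own lineage. Histone methylation was not measured in these samples, and whether any gene described here carried the mark is not known from them.

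The libraries held 2.75 to 3.68 M (1e6) gene counts each, of which the ribosomal RNA precursor Rn45s took 15.7% to 51.7%. Among the primary libraries the Rn45s share was 43.7%, 15.7% and 16.0% in LPS replicates 1, 2 and 3, against 40.9% to 51.7% without LPS. LPS replicate 1 stood apart from its group in this share, and its log2 levels correlated across genes at 0.963 and 0.965 with replicates 2 and 3, whereas those 2 correlated at 0.982. Levels are given as CPM (counts per 1e6 gene counts) on TMM-scaled library sizes, and where a library held 0 counts of a gene, its limit there is 3 counts, or 0.814 to 1.09 CPM before scaling (counting error only).

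Of the 100 genes, 33 had no read in any of the 10 libraries and 67 had at least 1, but 27 of those 67 rested on 1 to 3 counts in all libraries together. Silent genes made up 33 of 100 here and 27.5% of all genes listed. In LPS-treated primary microglia 48 of the genes had a read, in primary microglia without LPS 53, in LPS-treated BV2 cells 18 and in BV2 cells without LPS 14. The shares over all genes listed in the same 4 groups were 65.8%, 66.6%, 50.5% and 50.1%. A single primary library held a read from 34, 35 and 37 of the genes with LPS and from 36, 36 and 41 without, and a single BV2 library from 16 and 14 with LPS and 13 and 13 without. Every primary library therefore held reads from more of these genes than any BV2 library.

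The families divided unequally. Of the 39 Hox genes 22 were silent in all libraries, whereas 17 of the 19 Sox genes, all 6 Six-family genes, 7 of 9 Pax, 6 of 8 Lhx, 5 of 6 Gata and 9 of 13 Tbx genes had a read. Outside the Hox clusters the silent genes were Sox14, Sox17 (endoderm and endothelium), Tbx4 and Tbx5 (limb and, for Tbx5, heart), Tbx19 (pituitary), Tbx22, Pax1 and Pax9 (both active in the sclerotome), Lhx5, Lhx8 and Gata1 (the erythroid GATA factor). Reads were confined to primary microglia for 48 genes and to BV2 cells for 4, and 15 genes had reads in both. The 4 found in BV2 cells alone were all Hox genes, but of these only Hoxb9, with 35 counts, had more than 2. Hoxa6 had 1 count, and Hoxa7 and Hoxa10 had 2 each. Of the 17 Sox genes with a read, 16 had none in BV2 cells. The same split by cell type was not counted over all genes listed.

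**Figure D1:**
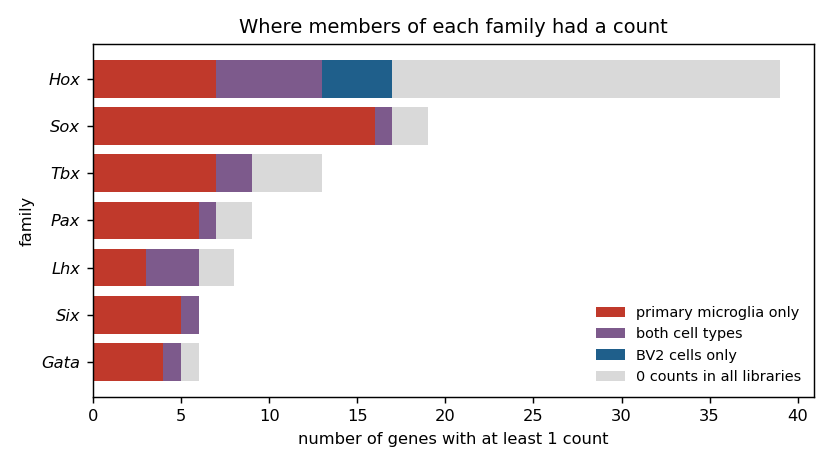
Number of genes of each family (horizontal axis) by where at least 1 count was found: in the 6 primary libraries only, in both cell types, in the 4 BV2 libraries only, or in none of the 10. The Hox bar is mostly grey (22 of 39 genes at 0), and the Sox bar is almost wholly primary microglia (16 of 19 genes).

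In primary microglia the Sox family held most of the reads of the set. Summed over all 100 genes the level was 176 ± 5.87 CPM in LPS-treated primary microglia and 301 ± 18.7 CPM in primary microglia without LPS (SD, n = 3 each), of which Sox genes gave 140 ± 3.94 and 255 ± 19.5 CPM. In BV2 cells the whole set summed to 26.8 ± 4.39 CPM with LPS and 29.5 ± 3.33 CPM without (SD, n = 2 each), and the Sox family to 0.785 and 0.973 CPM, all of it Sox4. Hox genes were the one family with a higher summed level in BV2 cells, at 7.21 CPM with LPS and 5.76 CPM without, against 1.56 CPM and 2.30 CPM in the primary groups with and without LPS.

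Per kilobase of transcript, which allows levels of different genes to be set side by side, Sox2 led in both primary groups. Sox2, a SoxB1 factor that maintains neural progenitors, reached 21.1 ± 4.16 CPM per kb with LPS and 28.3 ± 3.29 CPM per kb without (SD, n = 3 each). Sox4, a SoxC factor of newborn neurons and many progenitors, came next at 6.87 ± 0.223 and 12.7 ± 0.797 CPM per kb. Below them the order differed between the groups: Lhx2 (3.26 ± 0.676), Sox9 (2.42 ± 1.19), Sox21 (2.33 ± 0.212) and Sox6 (2.16 ± 0.0614) CPM per kb followed with LPS, and none of those 4 differed beyond the spread from the next of them in the order. Without LPS the next were Sox9 (8.78 ± 3.27), Sox21 (6.21 ± 0.426), Sox6 (3.18 ± 0.278), Lhx2 (2.75 ± 0.834) and Sox1 (2.43 ± 0.423) CPM per kb, with Sox21 above Sox6 by more than their spread and the other neighbours not.

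**Figure D2:**
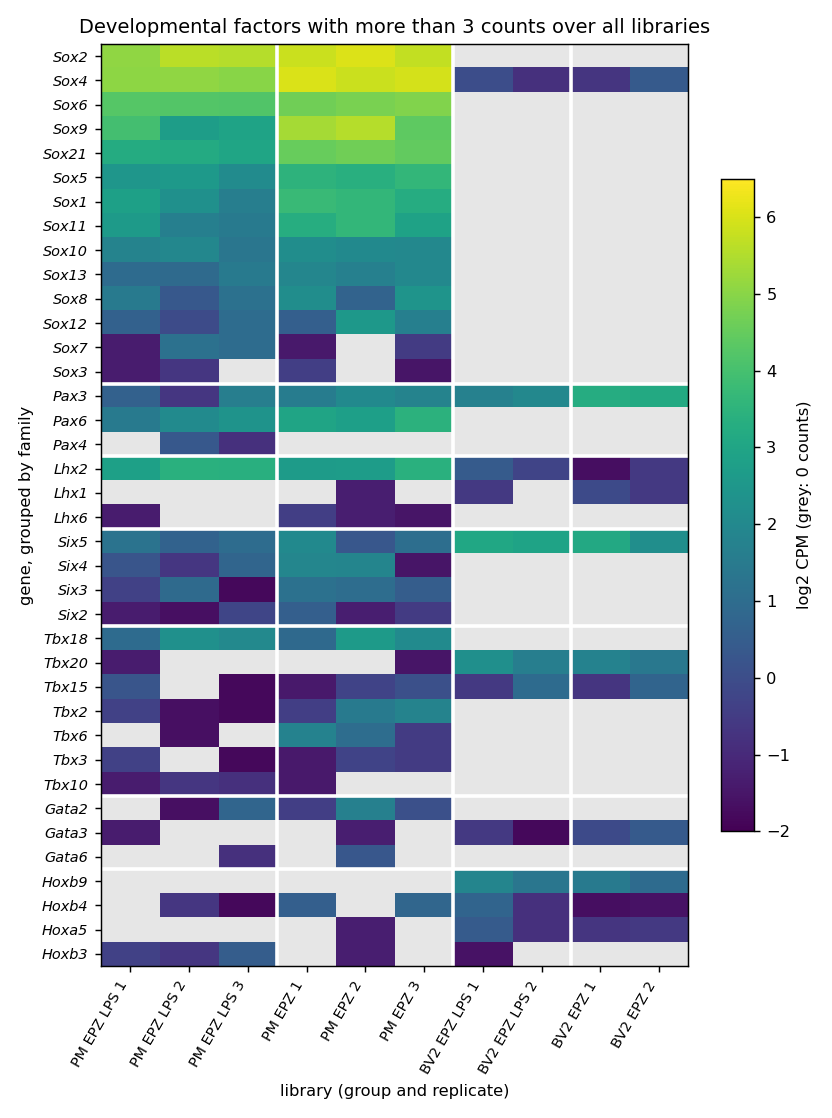
Log2 CPM (colour) of 38 of the 40 genes with more than 3 counts in all, one row per gene by family, one column per library, grey for 0 counts. Sox rows other than Sox3 and Sox7 are coloured across the 6 primary libraries, and all Sox rows but Sox4 are grey in the 4 BV2 libraries. Hoxb9 is coloured in all 4 BV2 libraries.

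The primary cultures also carried RNA of other cell types, beside which the Sox levels have to be read. The 14 astrocyte markers summed to 2603 to 3780 CPM in LPS-treated primary microglia and 2584 to 3404 CPM without LPS, none of the 14 at 0, while the 18 microglia and macrophage markers summed to 3470 to 3849 and 3258 to 3686 CPM. In the BV2 groups with and without LPS, 11 and 10 of the 14 astrocyte markers were at 0, among them Gfap, Aqp4, Aldh1l1 and Slc1a2 in both, and the sums, 473 to 560 and 590 to 672 CPM, came mainly from Vim and Glul. The primary sums include Vim and Glul as well, so they do not measure astrocyte RNA alone. The 12 oligodendrocyte lineage markers summed to 163 to 178 and 158 to 178 CPM in primary microglia with and without LPS, and the 12 fibroblast and meningeal markers to 248 to 554 and 375 to 748 CPM, the whole fibroblast list being at 0 in BV2 cells. In primary microglia with and without LPS the 12 neuron markers summed to 110 to 133 and 108 to 109 CPM. The 8 ependymal and choroid markers summed there to 83.4 to 115 and 101 to 126 CPM. In BV2 cells with and without LPS the neuron markers summed to 0.671 to 1.69 and 0 to 0.624 CPM, and the ependymal and choroid markers to 1.68 to 3.10 and 1.25 to 3.30 CPM. Microglia markers were present in BV2 cells, at 2373 to 2455 CPM with LPS and 2353 to 2475 CPM without. In these bulk samples fewer cells of a type and less RNA per cell cannot be told apart. The part of astrocytes or other cell types in the levels of the Sox genes was not tested.

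Start sites of 4 of the genes are shown because they mark the contrasts described: Sox2 and Sox21, which had reads in every primary library and none in BV2 cells, Tbx20, whose reads were nearly all from BV2 cells, and Hoxd10, silent in all 10 libraries. Each run holds 250 bases before and 50 after the start from RefSeq on GRCm38.p6, read 5′ to 3′ on the gene's strand, with CpG dinucleotides in capitals.
Sox2: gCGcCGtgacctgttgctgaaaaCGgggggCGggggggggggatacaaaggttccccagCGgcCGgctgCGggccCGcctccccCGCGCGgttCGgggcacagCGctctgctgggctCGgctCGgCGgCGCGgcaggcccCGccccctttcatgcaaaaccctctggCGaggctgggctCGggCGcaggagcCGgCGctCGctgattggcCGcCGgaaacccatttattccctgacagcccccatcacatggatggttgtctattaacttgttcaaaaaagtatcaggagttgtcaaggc
Sox21: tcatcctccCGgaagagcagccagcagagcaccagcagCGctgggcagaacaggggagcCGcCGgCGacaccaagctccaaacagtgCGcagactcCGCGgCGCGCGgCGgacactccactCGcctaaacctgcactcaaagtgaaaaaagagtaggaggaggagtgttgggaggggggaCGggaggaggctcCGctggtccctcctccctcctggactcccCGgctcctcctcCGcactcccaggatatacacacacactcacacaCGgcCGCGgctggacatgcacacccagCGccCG
Tbx20: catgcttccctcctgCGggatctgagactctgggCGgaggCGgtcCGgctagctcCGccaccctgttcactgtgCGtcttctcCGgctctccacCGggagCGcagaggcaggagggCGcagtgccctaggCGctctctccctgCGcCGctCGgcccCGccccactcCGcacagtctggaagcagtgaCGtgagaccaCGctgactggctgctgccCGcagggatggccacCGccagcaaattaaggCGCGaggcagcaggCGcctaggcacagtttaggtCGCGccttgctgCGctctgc
Hoxd10: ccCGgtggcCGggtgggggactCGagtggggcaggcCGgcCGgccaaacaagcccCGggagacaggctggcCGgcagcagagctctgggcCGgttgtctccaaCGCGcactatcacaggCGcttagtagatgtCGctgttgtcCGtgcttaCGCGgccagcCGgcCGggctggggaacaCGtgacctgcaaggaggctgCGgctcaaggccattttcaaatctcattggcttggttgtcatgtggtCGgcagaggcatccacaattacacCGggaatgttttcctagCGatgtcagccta
They lie at chr3:34649745-34650044 on the plus strand (Sox2), chr14:118236981-118237280 on the minus strand (Sox21), chr9:24774254-24774553 on the minus strand (Tbx20) and chr2:74691641-74691940 on the plus strand (Hoxd10). The Hoxd10 start used lies inside the gene's RefSeq span, 74684273 to 74695106, and not at its upstream end, where the starts of the other genes shown lie. The CpG counts are 27 for Sox2, 22 for Sox21, 26 for Tbx20 and 22 for Hoxd10, and 15.5%, 23.1%, 16.9% and 23.1% of the 32851 mouse windows of the same length hold as many or more, with a median of 7. The silent Hoxd10 window and the transcribed Sox21 window hold the same number of CpGs. The windows of Sox4 and Six5, not printed here, hold fewer, 12 and 17 CpGs, and 39.6% and 31.4% of the mouse windows hold as many or more.

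With LPS, 8 Sox genes and Pax6 were lower in primary microglia, and none of the developmental factors that passed the filter on low counts was higher. Of the 13 factors tested, 9 were called lower, 0 higher and 4 neither, at an adjusted p under 0.05 in edgeR's quasi-likelihood test (0 higher at an unadjusted p under 0.05 too, and 1 in DESeq2), and the median log2 fold change of the 13 was -0.94. Over all 10664 genes tested 39.2% were called, 21.4% higher and 17.8% lower, and the median log2 fold change was -0.03. The filter asked for 3.30 CPM (before scaling) in 3 of the 6 libraries, which 8 of the 13 reached in all 6. Sox10, Sox11, Pax6 and Pax3 reached it in more libraries without LPS than with LPS, so part of the direction of the 13 follows from the filter, and the counts describe the genes tested and not the 100. The Rn45s share was lower in LPS replicates 2 and 3 than in any library without LPS, and 9 were called lower with structural RNA genes left out. LPS replicate 1, whose Rn45s share lay among those of the libraries without LPS, was below every library without LPS for all 9 genes called. That is 1 library, and the 9 genes were called with it in the test. The part of the Rn45s share in these falls was not tested.

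Sox9, a SoxE factor of gliogenesis and a nuclear marker of astrocytes, showed the largest fall of the 13. Its level was 15.7, 6.70 and 7.65 CPM in the LPS libraries, against 40.8, 47.0 and 21.1 CPM in the libraries without LPS. The groups did not overlap, and the libraries without LPS varied more than 2-fold among themselves. The log2 fold change was -1.90 ± 0.40 (SE, adjusted p = 0.00674) and -2.32 when LPS replicate 1 was left out, the highest Sox9 library of its group and the one that stood apart. Sox21, a SoxB2 factor that opposes SoxB1 factors in neurogenesis, had tight groups, with 9.40, 9.25 and 7.94 CPM with LPS against 23.2, 25.3 and 22.2 CPM without. Its log2 fold change was -1.42 ± 0.21 (SE, adjusted p = 1.98e-05), and every LPS library lay under every other.

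Sox4 and Sox11, SoxC genes of immature neurons, fell together. For Sox4 the LPS libraries held 33.3, 33.8 and 31.8 CPM, against 64.4, 56.8 and 61.2 CPM without LPS, a log2 fold change of -0.90 ± 0.14 (SE, adjusted p = 2.90e-05). Sox11 stood at 6.27, 3.19 and 2.84 CPM with LPS against 9.74, 12.3 and 7.39 CPM without, a log2 fold change of -1.30 ± 0.34 (SE, adjusted p = 0.00475). Neither gene's groups overlapped.

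Of the SoxB1 genes, Sox1 and Sox2 were called lower with LPS. Sox1, a marker of neuroectoderm, had 7.05, 4.78 and 3.12 CPM with LPS and 13.5, 12.3 and 9.50 CPM without, a log2 fold change of -1.28 ± 0.31 (SE, adjusted p = 0.00244). Sox2, the most abundant of the set per kilobase, had 33.7, 49.4 and 47.3 CPM with LPS and 56.2, 65.8 and 52.8 CPM without, and its log2 fold change was -0.42 ± 0.16 (SE, adjusted p = 0.0400). The Sox2 call was lost in DESeq2 (adjusted p = 0.171) and when any 1 of LPS replicates 1 and 3 and replicates 1 and 2 of the cells without LPS was left out (adjusted p from 0.0598 to 0.197). Sox3, the third SoxB1 gene, had too few reads for the test.

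Among the SoxD genes, which lack an activation domain of their own and modulate other Sox factors, Sox5 and Sox6 fell. Sox5 had 5.48, 6.06 and 4.25 CPM with LPS and 11.2, 10.2 and 12.3 CPM without, a log2 fold change of -1.12 ± 0.27 (SE, adjusted p = 0.00271). Sox6 had 19.2, 18.8 and 18.1 CPM with LPS and 25.1, 27.8 and 29.9 CPM without, a log2 fold change of -0.57 ± 0.18 (SE, adjusted p = 0.0145). Both pairs of groups were apart, but the Sox6 call was lost in DESeq2 (adjusted p = 0.114), without LPS replicate 3 (0.0559) and without replicate 3 of the cells without LPS (0.0651). Sox13, the remaining SoxD gene, was not tested, with 1.96, 1.91 and 2.83 CPM with LPS and 3.75, 3.27 and 3.87 CPM without.

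Pax6, a paired-box factor of eye and forebrain development, had 2.74, 4.15 and 5.10 CPM with LPS and 7.87, 6.95 and 10.9 CPM without. The log2 fold change was -1.08 ± 0.32 (SE, adjusted p = 0.0116), and the call was lost in DESeq2 (adjusted p = 0.0930) and without replicate 3 of the cells without LPS (0.0796). Pax3, which acts in neural tube, neural crest and muscle progenitors, had 1.57, 0.638 and 3.12 CPM with LPS and 3.00, 4.09 and 3.52 CPM without. These groups overlapped, and the log2 fold change of -0.94 ± 0.49 (SE) had an adjusted p of 0.143, or 0.0401 at a log2 fold change of -1.69 without LPS replicate 3.

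The other factors tested gave no call. Sox10, the SoxE factor of the oligodendrocyte lineage and neural crest, had a log2 fold change of -0.35 ± 0.36 (SE, adjusted p = 0.474), from 3.30 ± 0.667 CPM with LPS and 4.15 ± 0.317 CPM without. Tbx18, found in mural cells and the heart's sinus node, had -0.15 ± 0.43 (adjusted p = 0.818), from 3.57 ± 1.45 and 4.08 ± 2.13 CPM, and its sign turned without LPS replicate 1 (0.11) and without replicate 2 of the cells without LPS (0.24). Lhx2, a LIM-homeobox factor of forebrain and eye, had 0.24 ± 0.28 (adjusted p = 0.545), from 9.26 ± 1.92 and 7.82 ± 2.37 CPM. A p over the threshold does not show that these 3 were the same with and without LPS.

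**Figure D3:**
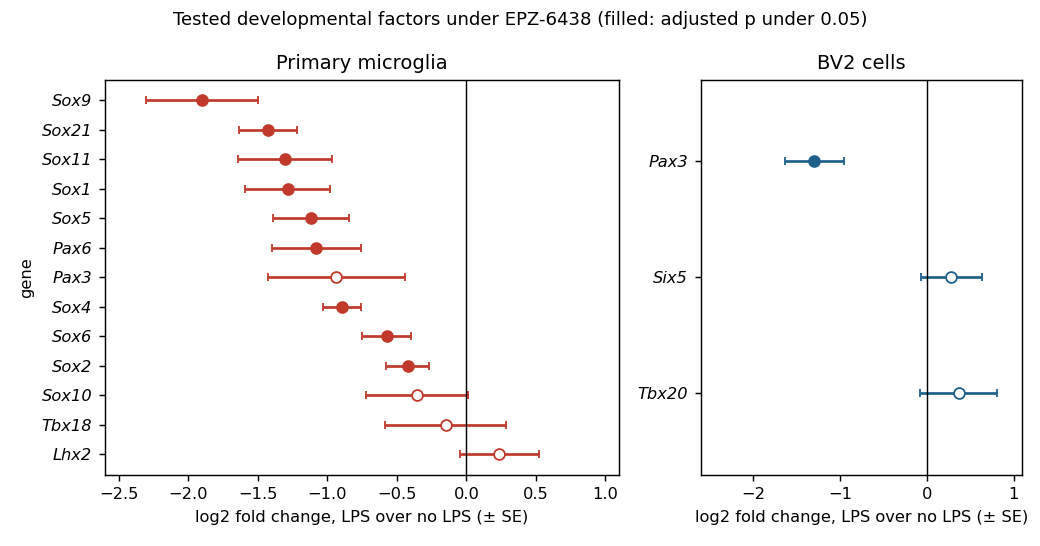
Log2 fold change of LPS over no LPS (horizontal axis, ± SE) for the developmental factors tested in primary microglia (left, n = 3 against 3) and BV2 cells (right, n = 2 against 2), filled where the adjusted p was under 0.05. The 9 filled points, from Sox9 at -1.90 to Sox2 at -0.42, lie left of 0 in primary microglia, and Pax3 at -1.30 is the filled point in BV2 cells.

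Of 6 cofactor genes of the SIX-homeobox factors listed, Eya1 to Eya4 and the Dach pair, 2 were tested in primary microglia, where 39.2% of all genes were called. Eya4 was lower with LPS in primary microglia (3.95 ± 1.71 CPM, against 16.0 ± 2.83 CPM without LPS, log2 fold change -2.07 ± 0.31 SE, adjusted p = 2.43e-05).

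Without the filter Tbx2 and Tbx6 were also called lower with LPS in primary microglia. Tbx6, a T-box factor of somite formation, had 1 count in the LPS libraries together and 16 without LPS, a ratio of 0.0540 (95% counting interval 0.00129 to 0.347), and Tbx2 had 4 and 19 counts. The adjusted p was 0.00163 for Tbx6 and 0.0102 for Tbx2 without the filter, and 0.0348 and 0.107 in DESeq2. Among the genes with few reads, Sox7, an endothelial SoxF gene, had 15 counts with LPS and 3 without, a ratio of 4.32 (95% counting interval 1.22 to 23.3), and Hoxb3 had 9 and 1. Neither Sox7 nor Hoxb3 was called without the filter (adjusted p = 0.0758 and 0.115), and DESeq2 gave them no adjusted p.

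Markers of other glia were tested beside the Sox genes, and their calls are to be read against the 39.2% called over all genes. In primary microglia 1 of 12 astrocyte markers tested was higher with LPS and 2 were lower, with a median log2 fold change of -0.21, against -0.94 for the 13 developmental factors and -0.03 for all genes. Gfap, the astrocyte intermediate filament, averaged 724 ± 290 CPM with LPS and 701 ± 231 CPM without (log2 fold change 0.04 ± 0.39 SE, adjusted p = 0.955), and Aldh1l1 averaged 11.7 ± 2.71 and 16.4 ± 0.767 CPM (-0.50 ± 0.23, adjusted p = 0.0915). The astrocyte water channel Aqp4 was higher with LPS (0.93 ± 0.17, adjusted p = 8.46e-04), whereas glutamine synthetase Glul (-0.84 ± 0.13, adjusted p = 2.31e-05) and the gap junction gene Gja1 (-0.50 ± 0.15, adjusted p = 0.0139) were lower. Oligodendrocyte lineage markers had 1 higher and 1 lower of 8 tested, neuron markers 2 higher and 0 lower of 5, and fibroblast and meningeal markers 0 of 11 in either direction (0 also at an unadjusted p under 0.05 in edgeR, and 1 lower in DESeq2) with a median of -0.49. The part of these cells in the fall of the Sox genes was not tested.

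A list of 73 other developmental homeobox, bHLH, forkhead and ZIC genes, chosen by name, stood beside the 100. Their summed level was 130 to 167 CPM with LPS and 167 to 198 CPM without in primary microglia. Of 11 tested 0 were higher and 1, Zic2, was lower (6.10 ± 2.09 CPM, against 12.0 ± 3.47 CPM without LPS, log2 fold change -0.94 ± 0.30 SE, adjusted p = 0.0180), with a median of -0.27. Among all genes tested there, 21.4% were higher and 17.8% lower. Olig1, the most abundant of the list and a factor of the oligodendrocyte lineage, averaged 56.1 ± 15.3 CPM with LPS and 62.1 ± 2.19 CPM without.

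**Figure D4:**
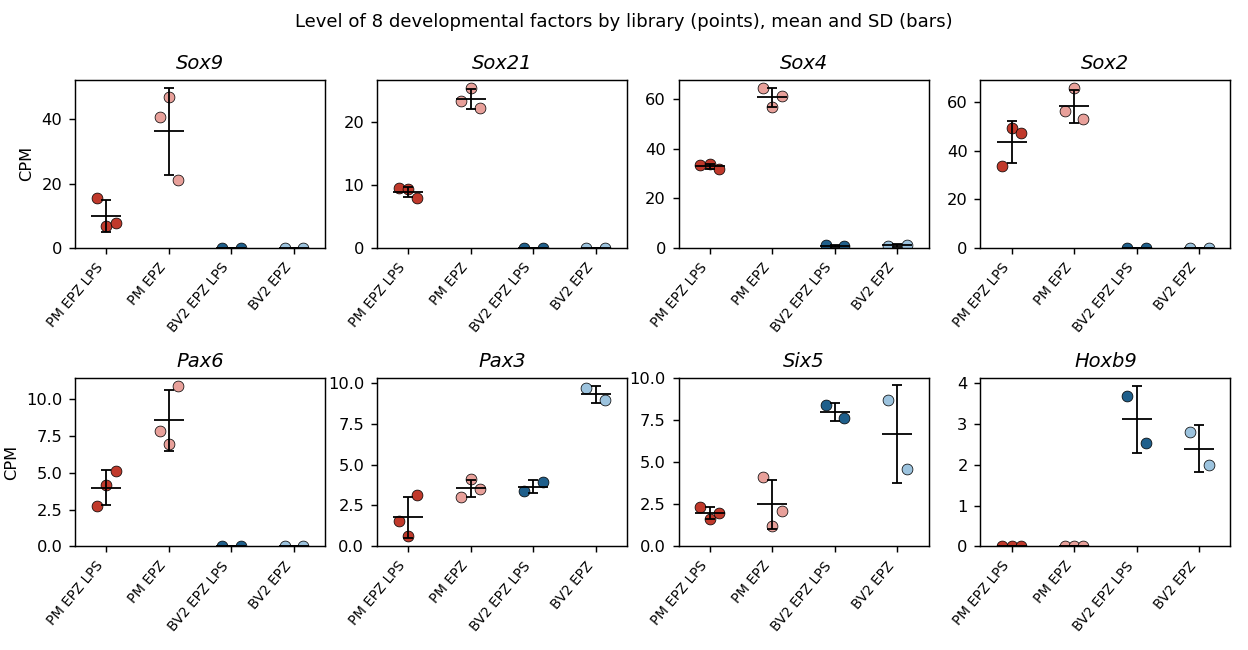
CPM (vertical axis, from 0) of 8 developmental factors in each library (points), with the group mean and SD (bars), for the groups PM_EPZ_LPS and PM_EPZ (primary microglia with EPZ-6438, with and without LPS, n = 3 each) and BV2_EPZ_LPS and BV2_EPZ (n = 2 each). Sox9, Sox21, Sox4, Sox2 and Pax6 lie lower with LPS in primary microglia and at or near 0 in BV2 cells, and Hoxb9 has reads in BV2 cells alone.

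BV2 cells had reads from a shorter set of 19 genes, 15 of which also had reads in primary microglia. The order of levels differed, led per kilobase by Six5 with LPS and by Pax3 and Six5 without. Six5, a SIX-homeobox factor of the lens, reached 2.66 ± 0.185 CPM per kb with LPS and 2.22 ± 0.966 CPM per kb without, and Pax3 0.945 ± 0.108 and 2.41 ± 0.137 CPM per kb (SD, n = 2 each). Hoxb9 had 1.21 ± 0.318 CPM per kb with LPS and 0.930 ± 0.226 CPM per kb without, and Tbx20, a T-box factor of the heart, had 0.429 ± 0.125 and 0.334 ± 0.0612. Counts were small throughout, with 173 counts over the whole set in the 2 LPS libraries and 184 in the 2 without, so that the order of the genes below Six5 with LPS, and below Pax3 and Six5 without, is uncertain.

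The Hox reads of the 2 cell types came almost wholly from the A and B clusters. Cluster A (11 genes, chromosome 6) had 5 counts in the 6 primary libraries and 37 in the 4 BV2 libraries, and cluster B (10 genes, chromosome 11) 27 and 45. Clusters C (9 genes, chromosome 15) and D (9 genes, chromosome 2) had 1 count each in primary microglia and 0 in BV2 cells, with 8 of the 9 genes silent in each. Primary reads lay mainly in Hoxb3 (10 counts) and Hoxb4 (12 counts), both genes of the hindbrain and of blood progenitors.

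In BV2 cells Hoxb9, a gene of the trunk and its posterior end, had 35 counts, Hoxa5 10 and Hoxb4 9. Hoxb9 measured 3.69 and 2.54 CPM with LPS and 2.81 and 1.98 CPM without, in every BV2 library and in none of the 6 primary ones, so that primary microglia without LPS lay at least 6.38-fold lower than BV2 cells without LPS and, with LPS, at least 9.41-fold lower (against 3 counts over the group). Its neighbours Hoxb5 to Hoxb8 had 0 counts in BV2 cells.

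**Figure D5:**
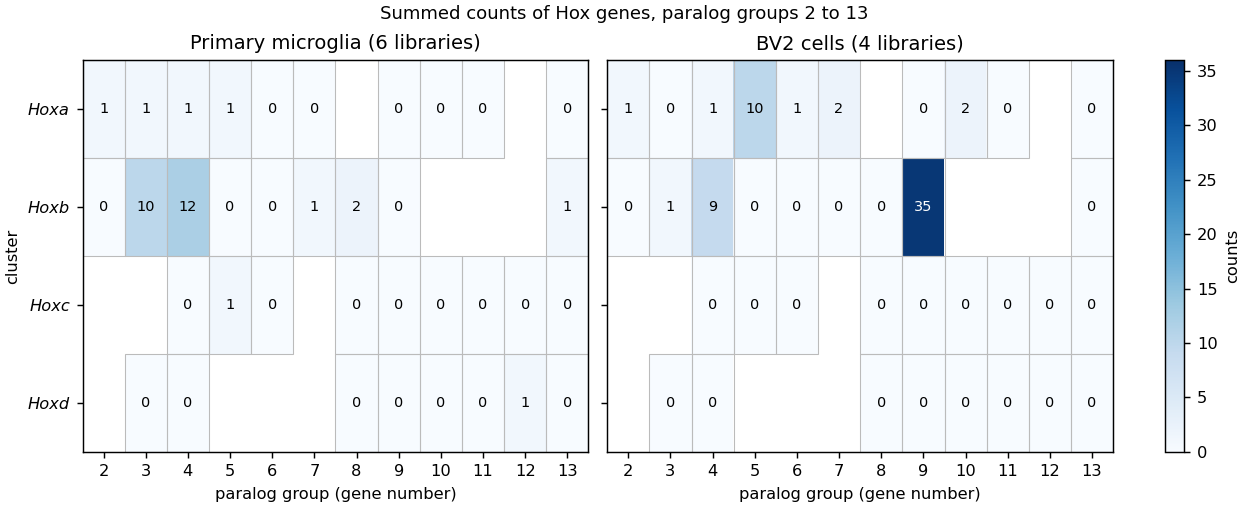
Summed counts of the Hox genes of paralog groups 2 to 13 (columns) by cluster (rows) in the 6 primary libraries (left) and the 4 BV2 libraries (right), with white where the mouse has no such gene. Clusters C and D are at 0 but for 1 count each in primary microglia, and the highest cells are Hoxb9 (35) and Hoxa5 (10) in BV2 cells and Hoxb4 (12) in primary microglia.

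Few genes were called for LPS in BV2 cells, 5.20% of the 9321 tested, 3.69% higher and 1.51% lower, and 3 developmental factors could be tested. Pax3 had 3.36 and 3.94 CPM with LPS and 9.67 and 8.92 CPM without, groups well apart, with a log2 fold change of -1.30 ± 0.34 (SE, adjusted p = 0.0489). That call was lost in DESeq2 (adjusted p = 0.609) and without any 1 of the 4 libraries (adjusted p from 0.0622 to 0.224), while the log2 fold change stayed between -1.41 and -1.18. Six5 (0.28 ± 0.35 SE, adjusted p = 0.834) and Tbx20 (0.37 ± 0.44 SE, adjusted p = 0.828) were not called, with 8.39 and 7.61 CPM against 8.73 and 4.63 CPM for Six5 and 4.70 and 3.10 CPM against 3.43 and 2.64 CPM for Tbx20. Eya4, the SIX-factor partner that was lower with LPS in primary microglia, was also lower in BV2 cells (2.97 CPM with LPS and 11.4 CPM without, log2 fold change -1.92 ± 0.36 SE, adjusted p = 0.00629 in edgeR, not called in DESeq2).

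Between the cell types most genes differed, so the developmental factors are given one by one. Without LPS, 74.1% of 11626 genes tested were called between primary microglia and BV2 cells, 41.5% higher and 32.5% lower in primary microglia, and with LPS 73.8%, 43.1% higher and 30.7% lower. Of the 17 developmental factors tested, 14 were higher and 3 lower in primary microglia without LPS, and 14 and 2 with LPS. Because 12 of the 17 had no read in BV2 cells and reached the test through primary microglia alone, those counts say nothing about the 100 genes as a set. Sox4 and Lhx2 had BV2 reads but also passed the filter through primary libraries alone, and Tbx20 passed it through BV2 libraries alone.

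Folds of genes with no BV2 read are lower bounds, taken against 3 counts in the BV2 group. Without LPS the primary level was at least 120-fold higher for Sox2, 74.1-fold for Sox9, 57.4-fold for Sox6, 48.8-fold for Sox21, 24.3-fold for Sox1, 23.5-fold for Sox5 and 20.1-fold for Sox11. Bounds were lower for Pax6 (at least 18.0-fold), Sox10 (8.62-fold), Tbx18 (8.35-fold) and Sox8 (8.09-fold). With LPS they were at least 96.3-fold for Sox2, 40.6-fold for Sox6, 20.8-fold for Sox9 and 19.1-fold for Sox21.

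Sox4 and Lhx2 had BV2 reads and were still far higher in primary microglia. No BV2 library reached the filter's level of 3.47 CPM (before scaling) for either, so part of their direction follows from the filter. Sox4, with 1.01 and 0.563 CPM in LPS-treated BV2 cells and 0.624 and 1.32 CPM in BV2 cells without LPS, had log2 fold changes of 5.35 ± 0.34 (adjusted p = 9.83e-14) with LPS and 5.92 ± 0.31 (adjusted p = 2.44e-15) without. Lhx2, with 1.34 and 0.845 CPM and 0.312 and 0.661 CPM in those BV2 libraries, had 3.08 ± 0.47 (adjusted p = 1.39e-06) with LPS and 3.92 ± 0.58 (adjusted p = 9.88e-07) without.

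Tbx20, Six5 and Pax3 were lower in primary microglia than in BV2 cells. No primary library reached the filter's level for Tbx20, so part of its direction follows from the filter. Tbx20, with 1 count in each primary group, had log2 fold changes of -4.69 ± 0.86 (SE, adjusted p = 2.26e-05) with LPS and -4.21 ± 0.93 (SE, adjusted p = 2.36e-04) without, and by counts the ratio of primary microglia to BV2 cells was 0.0283 with LPS (95% counting interval 6.90e-04 to 0.173) and 0.0412 without (9.92e-04 to 0.259). Six5 had 2.35, 1.59 and 1.98 CPM in LPS-treated primary microglia and 4.12, 1.23 and 2.11 CPM without LPS, all under the 4 BV2 libraries given above. Its log2 fold change was -2.01 ± 0.43 (SE, adjusted p = 1.38e-04) with LPS and -1.41 ± 0.43 (SE, adjusted p = 0.00518) without, and the call without LPS was lost without replicate 1 of the BV2 cells without LPS (-0.89, adjusted p = 0.171). Pax3 was lower without LPS (-1.39 ± 0.38 SE, adjusted p = 0.00184) and not called with LPS (-0.98 ± 0.49 SE, adjusted p = 0.0718).

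Hoxb9 did not pass the filter in this comparison but was called lower in primary microglia without LPS when it was dropped (adjusted p = 3.30e-05) and in DESeq2 (adjusted p = 0.00349). Gata3, the GATA factor of T cells, had 1 count in each primary group, against 3 in LPS-treated BV2 cells and 7 in BV2 cells without LPS. The 10 lymphocyte markers listed were at 0 in all BV2 libraries.

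No developmental factor was called in the test of whether its response to LPS differed between primary microglia and BV2 cells, which could be made for 5 of them (0 of 5 at an unadjusted p under 0.05 in edgeR, and 0 called in DESeq2). Of all genes tested 12.2% were called, 8.65% with a more positive and 3.54% with a more negative response in primary microglia. The difference of log2 fold changes, primary microglia minus BV2 cells, was -0.84 ± 0.93 for Lhx2 (adjusted p = 0.702), -0.60 ± 0.63 for Six5 (0.681), -0.57 ± 0.78 for Sox4 (0.842), -0.49 ± 1.98 for Tbx20 (0.99991) and 0.41 ± 0.65 for Pax3 (0.847). The standard errors are wide, and a p over the threshold does not show that the responses were alike. For the 12 factors without BV2 reads there was no response in BV2 cells to set against that of primary microglia. The comparisons share libraries, and their values are given here side by side and not as separate evidence.

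The Polycomb genes listed and found here, 12 PRC2 subunit and accessory genes and 20 PRC1 genes, each had more than 3 counts in every group. For LPS, 11 and 18 of them passed the filter in each cell type. Ezh2, the inhibitor's target, averaged 15.02 ± 2.45 CPM in LPS-treated primary microglia and 18.1 ± 0.756 CPM without LPS (log2 fold change -0.29 ± 0.21 SE, adjusted p = 0.281), and 43.8 ± 2.16 and 46.5 ± 0.366 CPM in BV2 cells with and without LPS. It was lower in primary microglia than in BV2 cells with LPS (-1.56 ± 0.18 SE, adjusted p = 2.14e-08) and without (-1.36 ± 0.18 SE, adjusted p = 2.17e-07). Its paralog Ezh1 was lower with LPS in primary microglia (18.8 ± 4.78 CPM, against 30.6 ± 5.72 CPM without LPS, -0.73 ± 0.21 SE, adjusted p = 0.00867). Of 11 PRC2 subunit and accessory genes tested for LPS in primary microglia 3 were higher (Suz12, Aebp2 and Lcor) and 2 lower (Ezh1 and Phf1). Their median log2 fold change was 0.19. Of 18 PRC1 genes 5 were higher and 5 lower, with a median of -0.26. Over all genes 21.4% were higher and 17.8% lower. The largest PRC1 changes were in Pcgf5 (52.0 ± 1.96 CPM, against 9.71 ± 1.21 CPM without LPS) and Cbx7 (2.56 ± 0.575 CPM, against 9.80 ± 2.58 CPM).

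RNA for partner proteins of these factors was found beside that for the factors. Calls among them stand beside the 39.2% of all genes called for LPS in primary microglia, 21.4% higher and 17.8% lower. Of 7 HOX cofactors tested for LPS in primary microglia, Pbx2 was lower (8.79 ± 1.21 CPM, against 17.7 ± 3.68 CPM without LPS, -1.02 ± 0.24 SE, adjusted p = 0.00210) and 0 were higher. Of 4 LHX and GATA cofactors tested, Ldb1, the LIM-domain binding adaptor, was lower (14.6 ± 1.18 CPM, against 42.2 ± 3.54 CPM without LPS, -1.53 ± 0.17 SE, adjusted p = 5.55e-07), while the LIM-only genes Lmo2 and Lmo4 were higher with LPS (0.90 ± 0.15 SE, adjusted p = 9.81e-05, and 1.36 ± 0.13 SE, adjusted p = 1.10e-07).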

How the data were processed

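Directional libraries were prepared from RNA depleted of ribosomal RNA and read from both ends, per the labels' protocols. CASAVA 1.8.2, Trimmomatic 0.33, STAR 2.5.1, DESeq2 and the mm10 build are named in the submitters' processing notes. The authors deposited integer read counts for each gene symbol, in 1 unstranded column and 1 per strand. Their gene annotation was not given in the sources used here. For this work the column of the strand that held nearly all stranded reads was used (0.682% to 2.21% lay on the other). Entries naming no gene, 70.4% to 79.5% of reads, were left out.

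Tests were made on the counts by edgeR 4.0.16 under R 4.3.3 (robust quasi-likelihood F test, TMM scaling, filterByExpr with minimum count 10 and minimum total 15, Benjamini-Hochberg over all genes tested, called under 0.05). LPS was fitted in each cell type separately, and the comparisons of cell types and of responses in 1 fit of all 10 libraries. Each SE is the log2 fold change over the square root of F, so both are shrunk by the prior count. DESeq2 1.42.0, RLE scaling, no filter, unstranded counts, leaving out structural RNA genes or each replicate, and a replicate block were alternatives. The tests were tested on simulated data. CPM were computed on TMM-scaled sizes, and per kilobase of the longest GENCODE vM21 basic protein-coding transcript. Where a group was at 0, folds are bounds against 3 counts over the group, and counting intervals are exact at 95%.

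Every factor that passed the filter in some comparison is named with its values, apart from a few genes that are not reported here, and the other genes named come from fixed lists. The genes and lists were chosen with earlier results of these data known. Promoter windows came from RefSeq (GRCm38.p6). They matched 67 of the 100 genes, 67% and under the 80% needed, so a check of promoter composition over the set is void.

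Chi-square tests found each pair of replicates to differ beyond counting noise (at least 1.57 per degree of freedom). Same-numbered primary libraries did not all deviate together (correlations 0.190, -0.0875 and 0.206), so numbers were not taken to pair samples.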

Additional observations from a re-analysis of the deposited data

Results flagged for a closer look

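Reads on the strand opposite to the counted one, which entered only the alternative with unstranded counts, exceeded the limit of 3 counts that a count of 0 allows for 12 of the developmental factors. Sox15 had 13 such reads over the 10 libraries and 1 on its own strand, and it shares exon sequence with Mpdu1 on the opposite strand. Pax6 had 12 opposite reads beside 107 on its own strand, Sox12 6 beside 41, Tbx10 5 beside 6, Tbx2 4 beside 23 and Hoxa2 6 beside 2. In the other 6 the opposite reads were a smaller share, with 28 for Sox4 beside 799 on its own strand, 9 for Sox21 beside 268, 5 for Sox1 beside 137, 4 for Sox5 beside 138, 4 for Sox9 beside 372 and 6 for Sox6. For Sox15 and Hoxa2 the opposite strand held more reads than the counted one, and the source of these reads was not tested. No group was large enough for a check of single libraries against the rest of their group.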

How the results depend on the processing

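Under the alternatives run, 169 of 201 checks of the counts and summed levels and 839 of 870 checks of single genes kept their direction and side of the threshold (values without a test: moved by less than the replicate spread; counts: within 1.5 times). For LPS in primary microglia the count of factors called higher, 0, was 1 in DESeq2, 1 without the filter and 0 to 1 with 1 library left out, and the count called lower, 9, was 7 in DESeq2, 11 without the filter and 7 to 9 with 1 library left out. In BV2 cells the 1 call was 0 in DESeq2 and 0 to 0 with 1 library left out. Between primary microglia and BV2 cells without LPS, 14 higher became 22 with no filter (12 to 17 with 1 library left out), and 3 lower became 5 in DESeq2 and 5 with no filter (3 to 4). With LPS, 14 higher ran from 13 to 16 and 2 lower from 2 to 3 with 1 library left out, and the counts were 19 and 3 in DESeq2 and 20 and 5 with no filter.

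Signs turned for genes that were not called: Tbx18 with LPS in primary microglia (-0.49 to 0.24 with 1 library left out), Six5 in BV2 cells (-0.078 to 0.83), and for the difference of responses Pax3 (-0.36, without LPS replicate 3 of the primary microglia, to 0.82) and Tbx20 (-2.43 to 1.45). The causes were not tested.

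Detection depends on depth. Asking for at least 3 reads in a library left 26, 26, 10 and 9 factors in LPS-treated primary microglia, primary microglia without LPS, LPS-treated BV2 cells and BV2 cells without LPS, and 36 in all, and at least 10 reads left 15, 19, 4 and 3, and 22 in all. At a common depth of 1418080 counts without structural RNA, 30.7, 36.9, 13.4 and 12.1 factors a library were expected in the same 4 groups. As CPM of the counts without structural RNA, with no TMM scaling, the summed level was 232, 524, 42.0 and 47.2 in the 4 groups.

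The replicate block changed no count of called factors by over 1.5 times (4479 genes in all called for LPS in primary microglia, against 4178 without it), and the numbers do not show a pairing by design. A shorter promoter window was not run, as the composition check is void.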
